A study of Homo sapiens with 9 samples.

Results

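TULP3 and 6 genes around it on the short arm of chromosome 12, namely FKBP4, ITFG2, NRIP2, FOXM1, RHNO1 and TEAD4, were followed in THP-1 cells carrying shRNAs against NFATC2. TULP3 was chosen by its fold changes and p-values against control in these libraries, where its RNA was much higher with both shRNAs, so its own difference from control is a description and carries no test here. The 6 neighbours were taken for their position. The 7 genes are 7 of the 58735 gene identifiers in the deposited count table, and 7 of 7 passed the filter on low counts that left 14975 genes for testing.

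THP-1 cells are an established monocytic line from a human acute myeloid leukaemia and carry the MLL-AF9 fusion. They received lentivirus made in 293T cells and puromycin from 24 hours, and poly(A) RNA taken at 48 hours from spinoculation was sequenced. The libraries were 3 with shRNA-143 and 3 with shRNA-146, which both target NFATC2, and 3 with a non-targeting control shRNA. Control cells thus also carried virus and went through selection, every library came from 1 cell line, and untransduced cells were not analysed here.

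NFATC2 is a transcription factor that calcineurin activates in response to calcium. It had 1.49, 7.40 and 6.95 CPM (counts scaled to sequencing depth) with shRNA-143, 2.59, 6.71 and 9.43 CPM with shRNA-146, and 12.7, 27.6 and 27.4 CPM in control, so both knockdown groups lay below control with no overlap. Its log2 fold change for the mean of both shRNAs was -1.97 ± 0.51 (SE, adjusted p = 0.325, edgeR) and, with the replicate number as a block, -2.12 ± 0.19 (adjusted p = 0.000575). Libraries held 40047459 to 44669709 counts. Libraries numbered 1 stood apart: on the first principal component, with 58.1% of the variance, they lay at -53.6, -85.7 and -59.7, against -2.47 to 53.8 for the other 6. Of 10 myeloid markers, 9 were over 1 CPM in every library, and their summed level ran from 1084 to 1198 CPM with shRNA-143, 902 to 1221 CPM with shRNA-146 and 1032 to 1088 CPM in control. Of 4 B cell markers 1 was over 1 CPM in every library and MS4A1 had a count of 0 throughout, and the sum of the 4 was 4.64 to 10.8 CPM with shRNA-143, 3.58 to 10.8 CPM with shRNA-146 and 3.50 to 7.44 CPM in control. No T cell, erythroid or epithelial and 293T marker passed 1 CPM in every library. Of 6 epithelial and 293T markers 3, KRT19, NEFL and PAX2, had a count of 0 throughout, and the sum of the 6 reached 0.207 CPM with shRNA-143, 0.152 CPM with shRNA-146 and 0.095 CPM in control. The sum of 4 T cell markers, of which CD3D, CD3E and CD2 were at 0, reached 0.0256 CPM with shRNA-143 and was 0 otherwise, and that of the erythroid markers was at most 0.0627 CPM. The labels do not tell whether replicates were separate cultures, and p-values therefore reflect the spread among these libraries alone, which could be technical. In bulk RNA, fewer cells that express a gene and less RNA per cell cannot be told apart.

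The genes of the locus have varied jobs. TULP3, a tubby-like protein, binds membrane phosphoinositides and the intraflagellar transport complex IFT-A, and carries G protein-coupled receptors such as GPR161 and other membrane proteins into the primary cilium, where it restrains Hedgehog signalling. FOXM1 is the forkhead transcription factor of late cell cycle genes. Its divergent neighbour RHNO1 binds the RAD9A-HUS1-RAD1 clamp and helps to activate the checkpoint kinase ATR. TEAD4 is a DNA-binding partner of the Hippo pathway coactivators YAP1 and WWTR1. ITFG2 is a subunit of KICSTOR, which anchors the GATOR complex that restrains mTORC1, NRIP2 is a nuclear receptor-interacting protein, and FKBP4 is an immunophilin that works with HSP90 on steroid receptors.

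All 7 genes lie within chr12:2794953-3040673 of hg38, and the deposited positions were those of GENCODE release 29. TULP3 (ENSG00000078246) occupies chr12:2877223-2941140 on the plus strand. RHNO1 (ENSG00000171792), at chr12:2876258-2889523 on the plus strand, and FOXM1 (ENSG00000111206), at chr12:2857681-2877155 on the minus strand, are arranged head to head, with 44 bases between the outermost FOXM1 start and the next RHNO1 start. TEAD4 (ENSG00000197905) begins 18190 bases after the end of TULP3, at chr12:2959330-3040673. FKBP4 (ENSG00000004478, chr12:2794953-2805423, plus strand), ITFG2 (ENSG00000111203, chr12:2812622-2859791, plus strand) and NRIP2 (ENSG00000053702, chr12:2825348-2835544, minus strand) lie before FOXM1.

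The gene models overlap, which bears on what a count holds. Of the 8 annotated TULP3 transcripts, 5 begin between 2890887 and 2890907, but TULP3-205, a transcript marked for nonsense-mediated decay, begins at 2877223, which is 13664 bases upstream and inside the first exon of RHNO1. The 60 exonic bases from 2877223 to 2877282 therefore belong to both genes on the same strand. They are 1.89% of the exonic bases of TULP3 and 2.27% of those of RHNO1. FOXM1 shares 781 exonic bases, 15.9% of its own, with ITFG2 on the opposite strand. ITFG2 shares 18.7% of its bases with genes on the other strand in all, FKBP4 shares 11.4% and NRIP2 5.46%, while TEAD4 shares none. The sources used here do not give whether counting used strand, so reads in those shared stretches cannot be assigned with certainty. AC005911.1, a sense-intronic transcript, also lies within the TULP3 span and shares no exonic base with it.

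**Figure D1:**
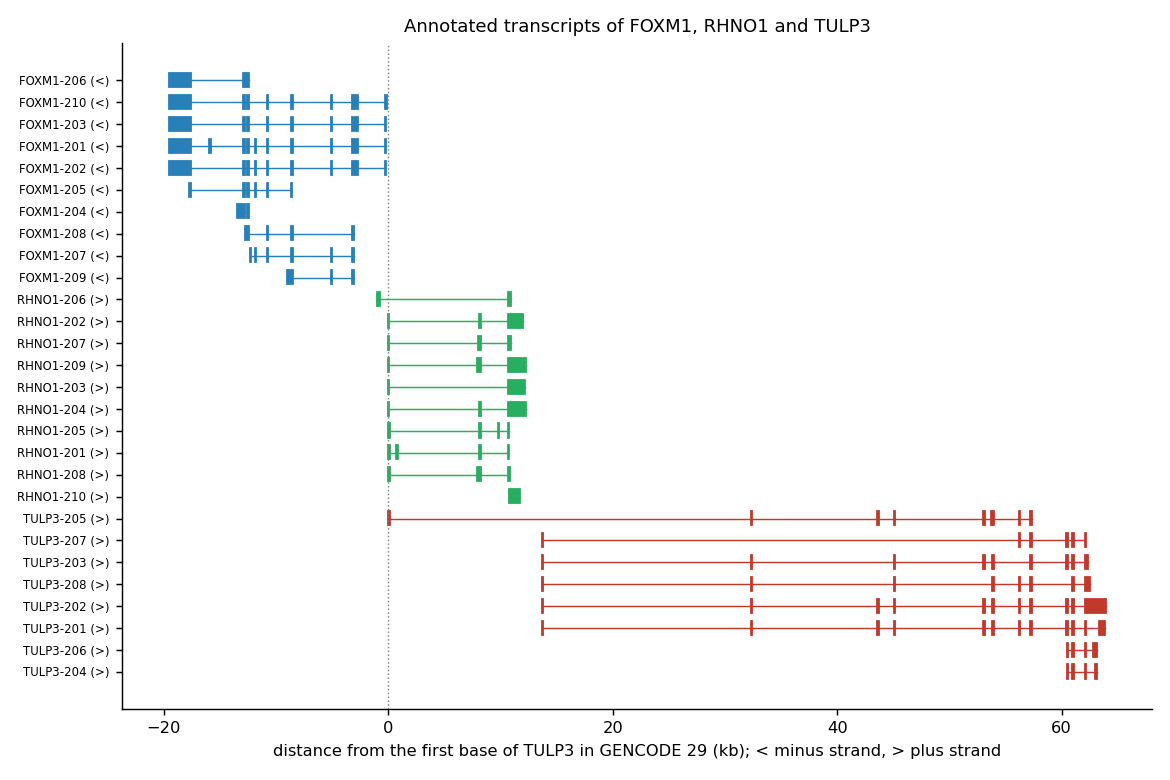
Annotated GENCODE 29 transcripts of FOXM1, RHNO1 and TULP3, drawn by distance in kb from the first annotated base of TULP3, with boxes for exons and lines for introns. TULP3-205 begins inside the first exon of RHNO1, and 5 other TULP3 transcripts begin 13664 bases or slightly more downstream of it.

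The stretch before the main TULP3 start is shown because 5 of its 8 transcripts begin just after it. It lies at chr12:2890641-2890886 on the plus strand (RefSeq, GRCh38.p14), beyond the end of RHNO1 and inside an intron of TULP3-205. The capitals mark matches to the CCAAT box (CCAAT) and the GC box (GGGCGG, here read on the reverse strand).
TULP3 upstream: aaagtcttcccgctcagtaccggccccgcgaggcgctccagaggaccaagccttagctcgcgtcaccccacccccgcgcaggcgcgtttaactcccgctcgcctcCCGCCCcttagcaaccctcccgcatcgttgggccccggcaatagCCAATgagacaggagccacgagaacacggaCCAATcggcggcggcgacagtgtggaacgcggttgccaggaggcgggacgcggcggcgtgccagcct
The CCAAT matches begin 101 and 71 bases upstream of the RefSeq start, and the GC box 145 bases upstream. On both strands, 32.0% of 35116 RefSeq promoter windows of 250 bases hold CCAAT and 42.6% hold GGGCGG. The NFAT core GGAAA, found in 55.6% of windows, the TEAD motif GGAATG, found in 11.9%, the ETS motif CCGGAAG, found in 8.52%, and the forkhead motif TAAACA, found in 11.0%, had no match in this window, which shows only that these letters are not in it. The RefSeq window of 250 bases, whose last 4 bases lie past the first annotated start and are not printed, was 68.8% G or C, against a median of 58.0% over all windows. The promoter table held 2 of the 7 genes, TULP3 and ITFG2.

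TULP3 RNA was low in control cells and several-fold higher with either NFATC2 shRNA. It had 8.18, 13.4 and 12.1 CPM with shRNA-143, 9.52, 11.3 and 13.1 CPM with shRNA-146, and 1.86, 2.42 and 1.63 CPM in control. The lowest knockdown library, shRNA-143 replicate 1, was above the highest control library, and the 2 knockdown groups overlapped each other. These values came from 319 to 648 raw counts with shRNA-143, 375 to 627 with shRNA-146 and 60 to 102 in control. Means were 11.2 ± 2.73 CPM with shRNA-143, 11.3 ± 1.80 CPM with shRNA-146 and 1.97 ± 0.407 CPM in control (SD, n = 3 each).

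The fitted log2 fold change of TULP3 was 2.51 ± 0.28 (SE) with shRNA-143 and 2.52 ± 0.28 with shRNA-146 against control, which is 5.69-fold and 5.73-fold. Between libraries of the same number, the ratio to control was 4.40, 5.54 and 7.40 with shRNA-143 and 5.12, 4.67 and 8.03 with shRNA-146 at replicates 1, 2 and 3. The smallest of the 6 ratios thus came from replicate 1 of shRNA-143 and the largest from replicate 3 of shRNA-146. In the authors' deposited table, the log2 fold change of TULP3 was 2.53 with each shRNA, and its p-value was the 4th lowest of 23828 listed genes with shRNA-143 and the lowest of 23854 with shRNA-146.

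By fold change alone TULP3 was not the gene that rose most. It ranked 11th of 14975 genes with shRNA-143, 8th with shRNA-146 and 7th for the mean of both shRNAs. The genes at the top of that order were scarce transcripts: NEK10, the first in each comparison, had a log2 fold change of 4.11 ± 1.32 with shRNA-143 and 4.56 ± 1.29 with shRNA-146 at a mean of 0.156 CPM over all libraries. LINC01529 followed at 3.96 ± 1.52 and 4.13 ± 1.50, at a mean of 0.125 CPM. Ordered by p among genes that were higher, TULP3 came first with shRNA-143 and for the mean of both shRNAs, and at place 3 with shRNA-146, after YES1, a kinase related to SRC, and OCRL, a phosphoinositide phosphatase. On chromosome 12 it had the highest fold change of 798 tested genes against control with each shRNA.

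**Figure D2:**
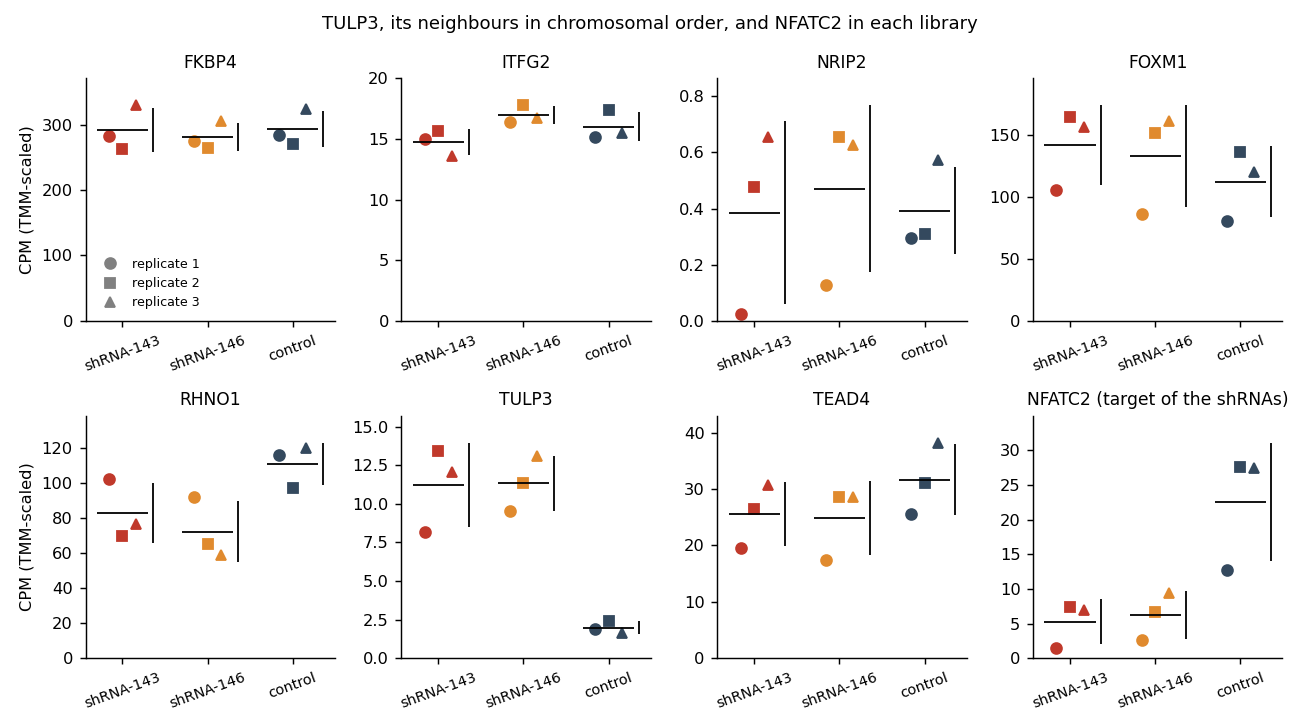
Levels of the 7 genes in chromosomal order and of NFATC2 in each library, in CPM after TMM scaling, with marker shapes for the replicate numbers, horizontal lines for group means and vertical lines for 1 SD either side. TULP3 sits between 8.18 and 13.4 CPM with the shRNAs and between 1.63 and 2.42 CPM in control, while the groups overlap for FKBP4, NRIP2, FOXM1 and TEAD4.

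RHNO1, whose first exon holds the upstream TULP3 start, was lower with the shRNAs. It had 102, 69.9 and 76.2 CPM with shRNA-143, 91.6, 65.3 and 58.8 CPM with shRNA-146, and 116, 96.8 and 120 CPM in control. All shRNA-146 libraries lay below all control libraries, whereas shRNA-143 replicate 1 lay above control replicate 2. Against the control of the same number, RHNO1 stood at 0.886, 0.722 and 0.637 of its level with shRNA-143, and at 0.793, 0.675 and 0.491 of it with shRNA-146. It was thus lower in 6 of 6 pairs, and least so at replicate 1. Here and below, such pairs reuse the 3 control libraries and are not independent. The share of all genes with 6 of 6 was not counted.

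Whether the lower RHNO1 level passed the test depended on the replicate number. Its log2 fold change was -0.42 ± 0.23 with shRNA-143 (adjusted p = 0.827), -0.62 ± 0.23 with shRNA-146 (adjusted p = 0.497) and -0.52 ± 0.19 for the mean of both (adjusted p = 0.456) by edgeR's quasi-likelihood test with Benjamini-Hochberg adjustment over 14975 genes. With the replicate number as a block it was -0.44 ± 0.15 (adjusted p = 0.132), -0.64 ± 0.15 (adjusted p = 0.038) and -0.54 ± 0.13 (adjusted p = 0.0339), the last a level 1.46-fold lower with a 95% interval of -0.82 to -0.27 on the log2 scale. Leaving out any 1 of 8 libraries ended the blocked call with shRNA-146 (adjusted p = 0.0524 to 0.175), and only without shRNA-146 replicate 1 did it hold, at 0.0137. For the mean of both shRNAs the blocked call held without shRNA-146 replicate 1 or replicate 3 and was lost without each of the other 7 libraries, with a highest adjusted p of 0.238 without control replicate 3. On replicates 2 and 3 alone, a choice made after seeing the data, RHNO1 fell without any block by 0.80 with shRNA-146 (adjusted p = 0.0136) and by 0.68 for the mean (adjusted p = 0.0108) on the log2 scale, in fits that called 6.13% and 9.99% of all genes. The authors' deposited table gave RHNO1 a log2 fold change of -0.40 with shRNA-143 and -0.61 with shRNA-146, neither under an adjusted p of 0.05.

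In CPM the difference from control was larger for RHNO1 than for TULP3. The group means of RHNO1 differed from control by -27.8 CPM with shRNA-143 and -38.7 CPM with shRNA-146, while those of TULP3 differed by 9.26 and 9.34 CPM. Across the 9 libraries the log2 CPM of RHNO1 had a Pearson correlation of -0.84 with that of TULP3, at place 14770 of 14974 genes ordered from the most to the least alike, and -0.93 after group means were subtracted. This is a description: the libraries share groups, replicate numbers and the libraries numbered 1 that stand apart, and TULP3 was lowest and RHNO1 highest at replicate 1 with each shRNA.

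FOXM1, transcribed away from RHNO1, had higher estimates with the shRNAs that did not pass the test. It had 105, 164 and 156 CPM with shRNA-143, 85.8, 151 and 161 CPM with shRNA-146, and 80.4, 136 and 120 CPM in control. Replicate 1 was the lowest in every group and the groups overlapped, yet each knockdown library was above the control of its number, by ratios of 1.31, 1.21 and 1.30 with shRNA-143 and 1.07, 1.11 and 1.34 with shRNA-146. The log2 fold change was 0.34 ± 0.30 (adjusted p = 0.936) with shRNA-143 and 0.24 ± 0.30 (adjusted p = 0.881) with shRNA-146. For the mean of both it was 0.29 ± 0.26 (adjusted p = 0.795), and 0.29 ± 0.11 with the block (adjusted p = 0.136, 95% interval 0.04 to 0.53), so no call was made. Without shRNA-146 replicate 1 the block gave an adjusted p of 0.0317 for the mean, and leaving out any other library gave at least 0.204.

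The ratio of FOXM1 to RHNO1, which lie head to head on opposite strands, was looked at after their values were seen and is not tested. In FPKM, the authors' counts per length and depth, it was 0.554, 1.26 and 1.10 with shRNA-143, 0.505, 1.25 and 1.48 with shRNA-146, and 0.375, 0.756 and 0.541 in control. It was higher than in the control of the same number in 6 of 6 knockdown libraries, but replicate 1 of each knockdown group was below control replicate 2, so the groups overlapped. How reads in the stretch that FOXM1 shares with ITFG2 were counted is not known here, and their part in this ratio was not tested.

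TEAD4, the next tested gene after TULP3, had lower estimates with the shRNAs that did not pass the test. It had 19.5, 26.5 and 30.8 CPM with shRNA-143, 17.4, 28.5 and 28.6 CPM with shRNA-146, and 25.6, 31.1 and 38.2 CPM in control. The groups overlapped, and TEAD4 was below the control of the same number in 6 of 6 pairs, at 0.677 to 0.919 of its level. The log2 fold change for the mean of both shRNAs was -0.33 ± 0.23 (adjusted p = 0.723) and -0.34 ± 0.12 with the block (adjusted p = 0.106, 95% interval -0.60 to -0.08).

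ITFG2 and FKBP4 were close to their control levels. ITFG2 had 15.0, 15.7 and 13.6 CPM with shRNA-143, 16.4, 17.8 and 16.7 CPM with shRNA-146, and 15.2, 17.4 and 15.5 CPM in control, and its log2 fold change for the mean of both was -0.02 ± 0.15 with a 95% interval of -0.35 to 0.31. FKBP4, the most abundant of the 7, had 283, 263 and 330 CPM with shRNA-143, 274, 265 and 305 CPM with shRNA-146, and 285, 271 and 324 CPM in control, and a log2 fold change of -0.03 ± 0.15 with a 95% interval of -0.36 to 0.30. Both intervals leave out a change of the size seen for TULP3. For both genes each knockdown group overlapped control, and neither passed the threshold against control with either shRNA.

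NRIP2 was too scarce for a reading. It had 1, 23 and 30 raw counts with shRNA-143, 5, 32 and 30 with shRNA-146, and 11, 13 and 21 in control. The log2 fold change for the mean of both shRNAs was 0.14 ± 0.75 with a 95% interval of -1.54 to 1.81, so a level up to 3.52-fold higher, or at 0.344 of control, lies within the interval at this depth. All groups overlapped, and replicate 1 held the fewest counts in each group.

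**Figure D3:**
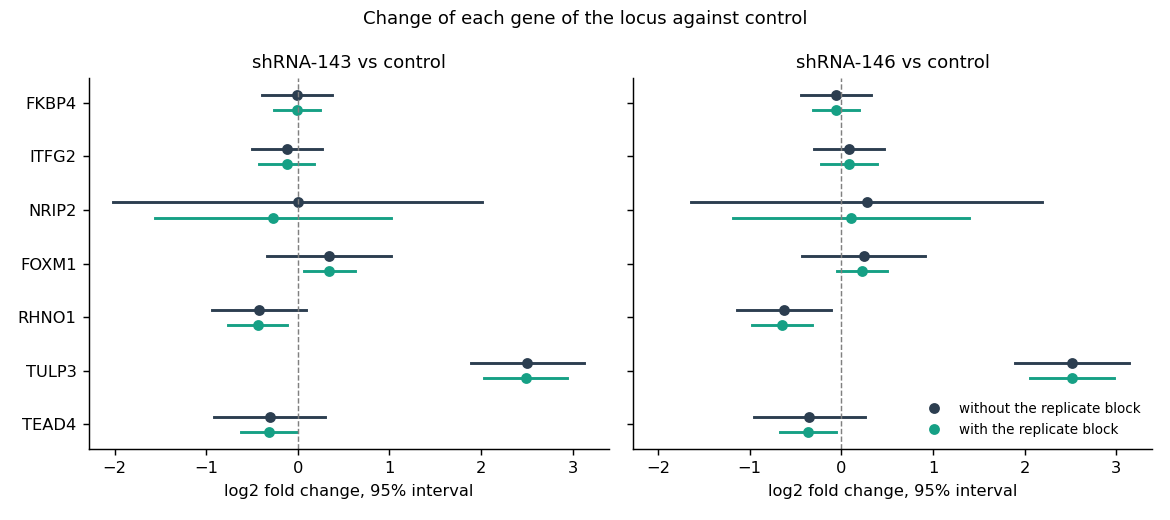
Log2 fold change of each of the 7 genes against control with shRNA-143 and shRNA-146, in chromosomal order from top to bottom, with points for estimates and lines for 95% intervals, without and with the replicate number as a block. TULP3 lies at 2.51 and 2.52 without the block. The RHNO1 estimates lie below 0 with both shRNAs, but the interval with shRNA-143 without the block reaches 0.09. The intervals of FKBP4, ITFG2 and NRIP2 cross 0 in both fits. Those of FOXM1 and TEAD4 cross 0 without the block, and that of FOXM1 with shRNA-146 also with it.

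Counted over the locus, 1 of the 7 genes passed an adjusted p of 0.05 with shRNA-143, where 0.0467% of all tested genes did, and 1 of 7 with shRNA-146, where 0.0334% did. For the mean of both shRNAs it was again 1 of 7, against 0.0334% of all genes. That gene was TULP3 each time, and nothing is read from its call because the choice of gene used the same contrast. For the mean it was lost without shRNA-143 replicate 2 or 3, shRNA-146 replicate 2 or 3, or any control library (adjusted p = 0.0524 to 0.333). With shRNA-143 alone it was lost without the same libraries other than shRNA-146 replicate 3, at up to 0.243, and with shRNA-146 alone without all of them, at up to 0.397. With the block the TULP3 call held in all 3 comparisons without each of the 9 libraries. That is no support for the call, since TULP3 was chosen on these same libraries. Of the 6 neighbours, 0 passed by edgeR's quasi-likelihood test, by DESeq2 or by limma-voom. At an unadjusted p under 0.05 by edgeR there were 0 of the 6 with shRNA-143, where 6.8% of all genes were past it, and 1 of the 6, RHNO1, with shRNA-146 (8.81% of all genes) and for the mean (9.34%). With the block, 1 of 7 passed with shRNA-143 (3.17% of all genes), 2 of 7 with shRNA-146 (4.42%) and 2 of 7 for the mean (5.74%), the second being RHNO1. With the block and no adjustment, TEAD4 and RHNO1 were under 0.05 in all 3 of these comparisons, and FOXM1 with shRNA-143 and for the mean. Of all genes, 20.7% were under it with shRNA-143, 23.5% with shRNA-146 and 25.6% for the mean.

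Between the shRNAs, 0 of the 6 neighbours passed an adjusted p of 0.05, where 0.0467% of all genes did, or 1.2% with the block. At an unadjusted p under 0.05 there were 0 of the 6 as well, against 3.75% of all genes without the block and 10.4% with it, and DESeq2 and limma-voom called 0. The lowest unadjusted p was 0.265 without the block and 0.166 with it, for ITFG2. TULP3 differed by 0.01 ± 0.26 on the log2 scale, shRNA-146 over shRNA-143, or by 0.03 ± 0.19 with the block. That is a description, since a gene taken for a large rise with both shRNAs will tend to differ little between them. The 3 ITFG2 libraries of shRNA-146 lay above the 3 of shRNA-143 at a fold of 1.15. How many of all genes separate in this way was not counted, so nothing is read from it.

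Levels of different genes were compared per length, in the authors' FPKM. With shRNA-143 the group means in order were 55.9 for FKBP4, 31.0 for RHNO1, 28.7 for FOXM1, 11.2 for TEAD4, 3.50 for TULP3, 2.34 for ITFG2 and 0.137 for NRIP2. With shRNA-146 they were 53.5, 26.8, 26.7, 10.8, 3.50, 2.67 and 0.165 for the same genes in the same order. In control the order of the means was FKBP4 at 55.5, RHNO1 at 41.0, FOXM1 at 22.4, TEAD4 at 13.6, ITFG2 at 2.52, TULP3 at 0.608 and NRIP2 at 0.137. TULP3 was thus above ITFG2 in each of the 6 knockdown libraries and below it in each of the 3 control libraries. FKBP4 stayed highest and NRIP2 lowest in each group's mean, and RHNO1 and FOXM1 differed by less than 1 SD of either with both shRNAs. Among 25108 listed genes the mean FPKM of TULP3 stood at place 6511 with shRNA-143, 6581 with shRNA-146 and 10826 in control.

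Farther out, no other tested gene within 1 Mb passed as higher. Of 55 annotated genes that start within 1 Mb of its start, 14 were tested: the 7 described and DCP1B, AC125807.2, TSPAN9, AC005912.1, CRACR2A, AC005831.1 and PARP11. For the mean of both shRNAs 1 of the 14 was called without the block, TULP3, and 2 with it, TULP3 and RHNO1, beside 0.0334% and 5.74% of all genes. Without TULP3, the median log2 fold change of the other 13 was 0.10 within a range of -0.52 to 0.36, with 7 above and 6 below 0 (a median of -0.02 with the block), and the median over all tested genes was 0.03 (0.01 with the block). The nearest tested gene beyond FKBP4 was DCP1B, a decapping factor that starts 931 kb before TULP3, at -0.27 ± 0.20. On the other side it was the noncoding RNA AC125807.2, 164 kb after it, at 0.36 ± 0.57. Over chromosome 12 as a whole the median was 0.05.

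**Figure D4:**
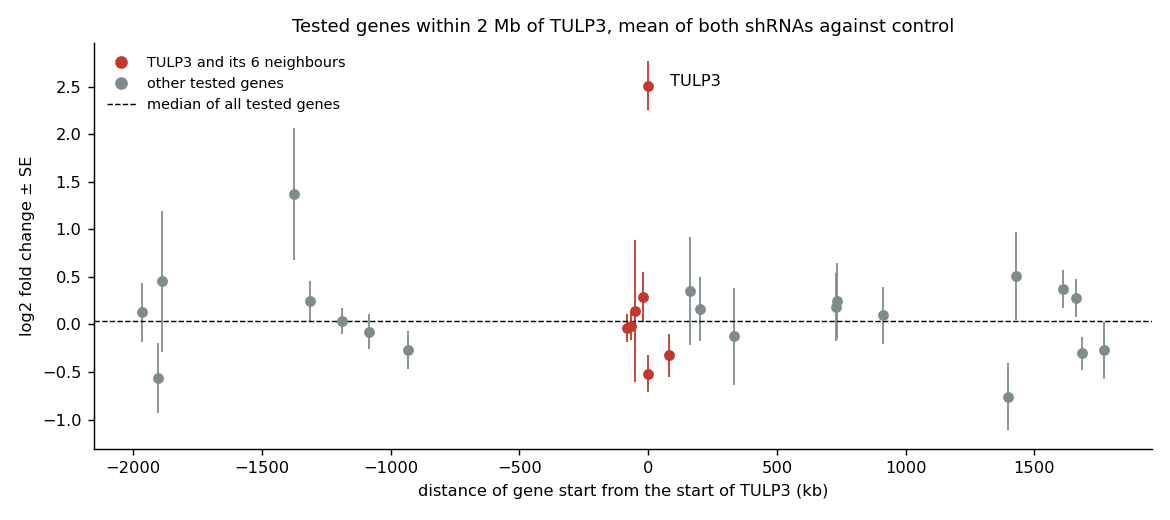
Log2 fold change for the mean of both shRNAs relative to control, with bars of 1 SE, for each tested gene whose start lies within 2 Mb of the start of TULP3, by distance in kb, with the median of all tested genes as a dashed line. TULP3 stands at 2.51, and its 6 neighbours lie between -0.52 and 0.29.

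Genes that work with the proteins of the locus were then counted for the mean of both shRNAs, from lists chosen with earlier results of these data known. Without the block 0 genes of any list passed by edgeR's quasi-likelihood test, while all tested genes had 0.0334%. Counts below are from the fit with the block, where 5.74% of all genes passed. In lists of 17 to 23 tested genes, 1 or 2 calls are near that share, so nothing is read from these counts about a pathway. The median of all tested genes was 0.03 without the block and 0.01 with it.

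The TULP3 machinery was represented by several lists. Of 2 tested tubby family members, TULP4 and TUB, 0 passed, and TULP4 was at 0.19 ± 0.33 on the log2 scale. The IFT-A complex, which TULP3 binds, had 0 of 6 called and a median of 0.22 in both fits, with WDR19 at 0.40 ± 0.25 and TTC21B at 0.27 ± 0.19. Of 10 tested TULP3 cargo and ciliary membrane genes 0 passed, with a median of 0.17 without the block. The polycystin PKD2 was at 0.39 ± 0.21. Of 9 tested Hedgehog pathway genes 0 passed, with a median of 0.07 in both fits and the receptor PTCH1 at 0.56 ± 0.28.

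Of 20 tested IFT-B and BBSome genes 0 rose and 1 fell, with a median of 0.16 without the block. That gene was BBS4, a subunit of the coat that moves receptors in and out of cilia, at -0.85 ± 0.16 (adjusted p = 0.0139 with the block and 0.304 without, edgeR). Its blocked call was lost without shRNA-143 replicate 2 or any control library, at a highest adjusted p of 0.127. It had 3.87, 5.76 and 6.36 CPM with shRNA-143, 2.54, 2.97 and 2.84 CPM with shRNA-146, and 5.66, 8.15 and 7.08 CPM in control. The shRNA-146 libraries lay below all others, while those of shRNA-143 overlapped control. Taken by shRNA, BBS4 fell with shRNA-146, by 1.31 ± 0.19 on the log2 scale (adjusted p = 0.00621 with the block, edgeR), and was at -0.39 ± 0.18 with shRNA-143 (adjusted p = 0.248 with the block). The difference between the shRNAs was -0.92 ± 0.19, shRNA-146 over shRNA-143 (adjusted p = 0.0448 with the block), and neither BBS4 comparison passed without the block (adjusted p = 0.188 and 0.649).

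Of 23 tested FOXM1 targets and partners, 0 rose and 2 fell with the block, and the median was -0.02 without the block and -0.06 with it. The mitotic kinase AURKA had 130, 130 and 114 CPM with shRNA-143, 110, 109 and 97.7 CPM with shRNA-146, and 158, 163 and 135 CPM in control, so both knockdown groups lay below control. It fell by 0.41 ± 0.10 for the mean of both shRNAs on the log2 scale (adjusted p = 0.0411 with the block and 0.427 without, edgeR). BIRC5, the chromosomal passenger protein survivin, fell by 0.50 ± 0.12 (adjusted p = 0.0372 with the block and 0.594 without). It had 362, 203 and 199 CPM with shRNA-143, 401, 302 and 271 CPM with shRNA-146, and 483, 334 and 385 CPM in control. Replicate 1 was highest in every group, and both knockdown groups overlapped control. Taken by shRNA with the block, AURKA was at -0.53 ± 0.12 with shRNA-146 (adjusted p = 0.0344, edgeR) and -0.28 ± 0.12 with shRNA-143 (adjusted p = 0.197). BIRC5 was at -0.69 ± 0.14 with shRNA-143 (adjusted p = 0.028) and -0.31 ± 0.14 with shRNA-146 (adjusted p = 0.213). Neither gene passed between the shRNAs with the block (adjusted p = 0.519 and 0.327). The blocked calls for the mean did not hold up when single libraries were left out. That of AURKA held without shRNA-146 replicate 1 or 3, and that of BIRC5 also without shRNA-143 replicate 1. Without the other libraries the adjusted p reached 0.192 for AURKA and 0.227 for BIRC5.

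TEAD and Hippo pathway genes had the highest list median, 0.28 without the block and 0.25 with it, and of 18 tested 1 rose and 0 fell. LATS2, a kinase of the Hippo pathway, had 4.41, 11.0 and 11.5 CPM with shRNA-143, 5.38, 11.1 and 12.2 CPM with shRNA-146, and 2.91, 5.37 and 4.06 CPM in control. It rose by 1.11 ± 0.18 for the mean of both shRNAs on the log2 scale (adjusted p = 0.00921 with the block and 0.431 without, edgeR), and was above the control of its number in 6 of 6 pairs, although shRNA-143 replicate 1 lay within the control range. The shRNA-146 libraries all lay above control, the lowest of them by a narrow margin. Its blocked call was lost without control replicate 2 (adjusted p = 0.087) or control replicate 3 (adjusted p = 0.091). The receptor tyrosine kinase AXL was at 0.60 ± 0.23, with adjusted p = 0.0595 with the block (edgeR), so no call was made. Without shRNA-146 replicate 1 the block gave an adjusted p of 0.00629, and leaving out any other library gave 0.0731 to 0.259.

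For RHNO1, 0 of 12 genes of the RAD9A-HUS1-RAD1 clamp and ATR activation passed, with RAD9A at 0.29 ± 0.17 and RAD9B at -0.76 ± 0.48. For ITFG2, 0 of 12 tested KICSTOR and GATOR genes passed, with a median of -0.13 without the block, NPRL2 at -0.28 ± 0.22 and WDR59 at 0.24 ± 0.16. For FKBP4, 0 of 17 HSP90 co-chaperones and FKBPs rose and 1 fell. That gene, the cytosolic chaperone HSP90AB1, had 1467, 1866 and 1836 CPM with shRNA-143, 3197, 3047 and 3126 CPM with shRNA-146, and 3417, 3667 and 3798 CPM in control. For the mean its log2 fold change was -0.65 ± 0.12 (adjusted p = 0.0138 with the block, edgeR), a call lost without shRNA-143 replicate 2 or 3 or any control library, at a highest adjusted p of 0.0954. The fall was uneven between the shRNAs: it was -1.08 ± 0.14 with shRNA-143 (adjusted p = 0.00385 with the block) and -0.21 ± 0.14 with shRNA-146 (adjusted p = 0.379 with the block), and the difference between them was 0.87 ± 0.14, shRNA-146 over shRNA-143 (adjusted p = 0.0136 with the block). Without the block none of these HSP90AB1 comparisons passed. FKBP3, a further immunophilin, was at -0.36 ± 0.22 for the mean of both shRNAs.

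**Figure D5:**
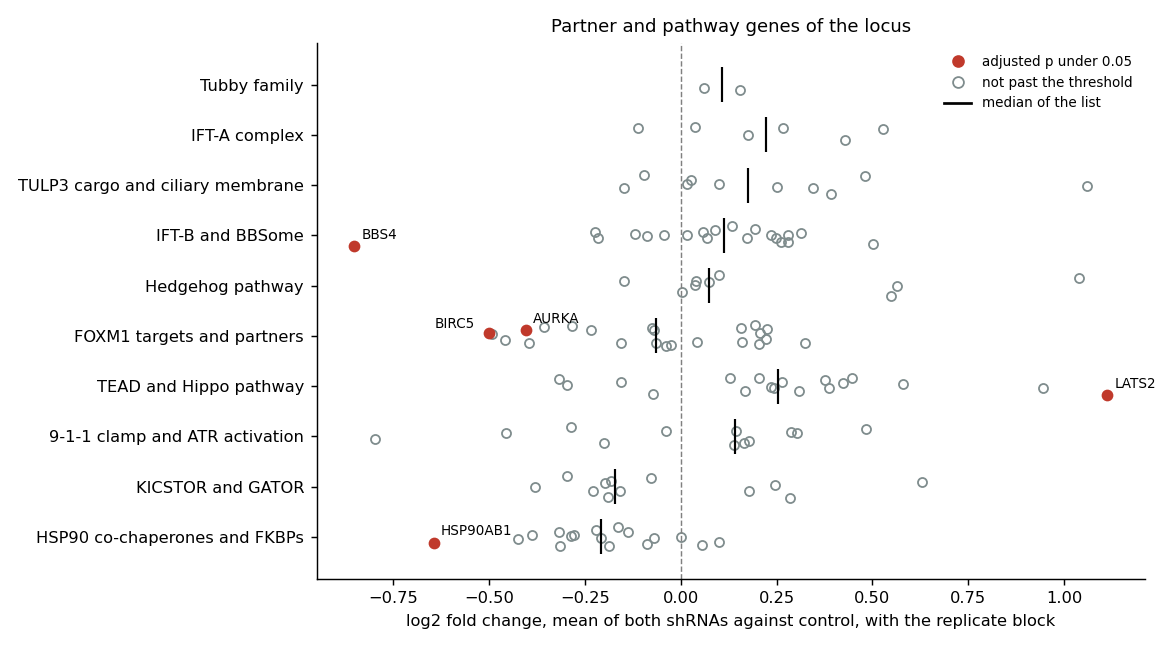
Log2 fold change for the mean of both shRNAs relative to control, with the replicate number as a block, of the tested genes in each list, with filled points for an adjusted p under 0.05 and black bars for list medians. Filled points are BBS4, BIRC5, AURKA and HSP90AB1, below 0, and LATS2, above 0.

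The genes whose log2 CPM ran most like that of TULP3 over the 9 libraries were on other chromosomes. Chromosome 12 held only 798 of the 14975 tested genes, so nothing is read from this about the locus. The first 10 by Pearson correlation were TRAM2 at 0.98, ZNF367 at 0.98, BRWD3 at 0.98, GBP3 at 0.98, WASL at 0.98, PLCL2 at 0.97, FUT11 at 0.97, ENTPD4 at 0.97, CCNYL1 at 0.97 and SH3RF1 at 0.96, as a description over libraries that share groups and numbers. BRWD3, for example, averaged 11.1 CPM with shRNA-143, 11.5 CPM with shRNA-146 and 5.14 CPM in control, and CCNYL1 averaged 55.8, 64.3 and 27.5 CPM in the same groups. Of the neighbours, FOXM1 had 0.49, NRIP2 0.04, ITFG2 -0.02, FKBP4 -0.17 and TEAD4 -0.38. After group means were subtracted, which leaves the spread within groups, the 5 most alike were GLUD1P3, TMCC2, FANCD2, LRIG2 and ZNF623, all at 0.98. Of these, FANCD2, a protein of interstrand crosslink repair, averaged 66.8 CPM with shRNA-143, 59.5 CPM with shRNA-146 and 55.7 CPM in control.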

How the data were processed

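Per the submitters' processing notes, fastp, STAR 2.5, featureCounts and DESeq2 were used with hg38, in roles not given there. The authors deposited raw counts per gene for 9 libraries, and comparison tables with normalized signal (counts over a size factor, not used further), FPKM, log2 fold changes and p-values. Genes were filtered with edgeR's filterByExpr, and TMM-scaled counts of all 9 libraries were fitted with edgeR 4.0.16 (glmQLFit, robust, R 4.3.3) to 3 group means, leaving 6 residual degrees. Benjamini-Hochberg adjustment ran over all 14975 genes, with a threshold of 0.05. The fits were checked on simulated counts with 200 changed genes. Those counts had a capped spread and no replicate effect, so the check does not bear on calls that depend on the block.

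The titles number the replicates without saying what a number stands for. Residuals from group means on log2 CPM (prior count 2) correlated at 0.252 to 0.758 in 9 pairs with equal numbers and at -0.678 to 0.535 in 18 pairs with unequal ones. Every equal-number pair was over 0.1, so a blocked fit, with 4 residual degrees, is given beside results whose call it changes. This pairing comes from the data and mainly sets the libraries numbered 1 apart.

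Members and lists were chosen with earlier results of these data known. Genes were named by rule: the 7 members, NFATC2, genes overlapping TULP3, the nearest tested genes and any called within 1 Mb, up to 4 called per list or otherwise the 2 lowest p, and the 10 and 5 genes most like TULP3. Genes ranked beside TULP3 by fold or p, and the remaining genes within 1 Mb, were added after their values were seen. A few genes that the rule names are not reported here. Alternatives were other scalings, no filter, DESeq2 1.42.0, limma-voom (limma 3.58.1), only the groups compared, and each library left out.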

Additional observations from a re-analysis of the deposited data

How the results depend on the processing

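TULP3 stayed higher than control in all 28 alternatives with each shRNA, at a log2 fold change of 2.29 to 2.69 with shRNA-143 and 2.32 to 2.70 with shRNA-146. This too is a description, since TULP3 was chosen on these libraries. With the replicate number as a block, members called came to 2 with shRNA-146, 2 for the mean of both shRNAs and 2 of the genes within 1 Mb, by the addition of RHNO1, where the fit without the block called 1 in each. With shRNA-143 the block left the count at 1. On replicates 2 and 3 alone, chosen after seeing the data, the same 3 counts were again 2, and with the block on those libraries shRNA-143 also called 2. Scaled by library size alone, 0 members passed with shRNA-146, 0 for the mean and 0 within 1 Mb. That scaling moved the median of all tested genes by 0.12 on the log2 scale for the mean of both shRNAs and by 0.13 with shRNA-146. Fitted on the groups compared alone, with fewer libraries, 0 passed with either shRNA. Leaving out 1 library at a time, with and without the block, gave 0 to 3 with shRNA-143, 0 to 2 with shRNA-146, and 0 to 3 for the mean and for the genes within 1 Mb. The third gene was FOXM1, called with the block only without shRNA-146 replicate 1.

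Directions that turned were those of small or scarce values, and the cause was not tested. Against control, NRIP2 with shRNA-143 gave 0.0211 by median-of-ratios scaling, 0.157 by library size, 0.0121 by DESeq2, 0.0005 on the groups compared alone, 0.383 on replicates 2 and 3, 0.393 on those with the block, and -0.815 to 0.529 with 1 library left out. For the mean it gave -0.284 by limma-voom, -0.0842 with the block and -0.629 to 0.503 with 1 library left out, and with shRNA-146 -0.442 to 0.711. FKBP4 with shRNA-143 gave 0.009 by median-of-ratios scaling and by DESeq2, 0.0954 by library size, 0.0051 on replicates 2 and 3, 0.0016 on those with the block, and -0.104 to 0.0708 with 1 library left out. By library size FKBP4 gave 0.0868 with shRNA-146 and 0.0911 for the mean, and with 1 library left out -0.122 to 0.0179 and -0.0865 to 0.0443. ITFG2 for the mean gave 0.0949 by library size and -0.0579 to 0.045 with 1 library left out. Between the shRNAs, shRNA-146 over shRNA-143, TULP3 gave -0.0001 by upper quartile scaling, -0.0679 on replicates 2 and 3, -0.0614 on those with the block and -0.172 to 0.169 with 1 library left out. TEAD4 gave 0.0091 by library size and -0.204 to 0.159, FOXM1 -0.27 to 0.14, NRIP2 -0.251 to 0.872, FKBP4 -0.122 to 0.0434 and NFATC2 -0.199 to 0.608 with 1 library left out. For the mean, ZNF623 gave 0.0792 by library size, 0.0266 on replicates 2 and 3, 0.0301 on those with the block, and -0.185 to 0.0643 with 1 library left out. TUB gave -0.398 by limma-voom and -0.436 to 0.609, GLUD1P3 -0.0213 to 1.68 and TMCC2 -0.0622 to 0.956 with 1 library left out.

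By Spearman correlation 0 of the 10 genes most like TULP3 were shared with the 10 by Pearson correlation. Of the 7 genes, depth limited NRIP2 most, at 1 to 32 counts a library.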
